A study of Mus musculus with 4 samples.

Results

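Calcium handling and excitation-contraction coupling were followed in mouse gastrocnemius through 10 genes, chosen by symbol from 23282 gene rows. They were Cacna1s, Jph1, Ryr1, Casq1, Casq2, Atp2a1, Atp2a2, Sln, Pln and Pvalb, and each had 1 row in every library. The choice used no measured value. In the analysis below a gene was called changed when a pair of libraries differed at least 2-fold and the higher of their normalized read counts was 4 or more. The study names a fold change of 2 and a normalized read count of 4 as limits, and neither the scale of that count nor the library it applied to is given in the sources used here.

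Excitation-contraction coupling turns an action potential into a contraction. The voltage sensor of the transverse tubule, whose pore-forming subunit is encoded by Cacna1s, opens the ryanodine receptor of the sarcoplasmic reticulum (Ryr1) by direct contact, and junctophilin 1 (Jph1) holds the membranes together at the triad. Calcium leaves a store buffered by calsequestrin (Casq1 in fast and slow fibers, Casq2 mainly in slow fibers and heart) and binds troponin. Relaxation needs the calcium pumps SERCA1 (Atp2a1, the fast fiber pump) and SERCA2 (Atp2a2, the pump of slow fibers and heart), which are restrained by the small membrane proteins sarcolipin (Sln) and phospholamban (Pln). Parvalbumin (Pvalb) buffers calcium in the cytosol of fast fibers, which make up most of the mouse gastrocnemius.

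The samples came from male CDF1 mice in a design that crossed high-intensity treadmill exercise (E) with a tumor (T), the latter raised with CT26 cells, a murine colorectal carcinoma line, given through the tail vein. Sedentary mice without tumor, E(-)T(-), were the normal control and trained mice without tumor, E(+)T(-), the normal exercise group. Sedentary mice with tumor, E(-)T(+), were the cancer control, while trained mice with tumor, E(+)T(+), were the cancer exercise group. The labels give postnatal day 28 for all 4 samples and 10 mice per group, with 1 library per group. The study gives about that age for the mice at purchase and took the tissues at the end of the experiment. By that account the mice were older than the label when the muscle was taken. The study describes spread of the tumor through the body. Its results text speaks of 1 representative animal per group for the muscle profiles, so a library stands for 1 mouse by that account, although the labels do not say so. No difference below has a replicate check, so no test between conditions was possible and no p-value is given.

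The libraries were made by 3′ mRNA sequencing (QuantSeq), which reads the end of each polyadenylated transcript, so that the count of a gene does not grow with its length and levels of different genes can be set side by side per transcript. Depth ranged from 10647445 to 13226025 reads, and 14427 to 14830 genes had reads. A count of 0 allows a share of up to 2.82e-05% of reads in the shallowest library. Intervals are 95% intervals of the counts. They cover counting error only, because amplified reads without molecular identifiers are not independent molecules, and the spread between animals is unknown. In whole muscle, fewer cells of a type and less RNA per cell cannot be told apart. All 8 skeletal muscle markers were present, and the heart markers Nppb and Myl7 had 0 reads in all 4 libraries, with 2 reads of Ryr2, the heart release channel, in normal control and 0 elsewhere. Most heart marker reads came from Myh6, whose counts were 118 (normal control), 354 (normal exercise), 476 (cancer control) and 267 (cancer exercise). Myh6 was thus lowest in normal control and highest in cancer control, as was Myh7, a slow fiber marker taken up below. The 7 heart markers summed to 15.5 to 49.3 RPM (reads of a gene scaled to the library total) over the libraries, 6 endothelial markers to 206 to 297, 4 smooth muscle markers to 59.1 to 145, and 6 nerve and Schwann cell markers to 175 to 506. Where 4 values of a gene are given without names, those of normal control and normal exercise come before those with tumor, control again before exercise.

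Sarcolipin and phospholamban act on the same pumps, and the results below part them, so the coding sequences of both are shown. They come from GENCODE M21 transcripts on GRCm38 (mm10), with the start and stop codons in capitals. Sln lies at chr9:53850164-53854560 on the plus strand and its coding sequence spans 96 bases (31 codons before the stop). Pln lies at chr10:53337667-53345987 on the plus strand with a coding sequence of 159 bases (52 codons before the stop).
Sln: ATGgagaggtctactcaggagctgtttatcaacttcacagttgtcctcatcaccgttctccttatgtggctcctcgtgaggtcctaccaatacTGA
Pln: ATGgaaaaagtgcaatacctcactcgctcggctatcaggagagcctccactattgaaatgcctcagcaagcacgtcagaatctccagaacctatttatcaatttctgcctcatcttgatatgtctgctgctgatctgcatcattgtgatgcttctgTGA

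Casq1 and Pvalb, a store protein and a cytosolic buffer, were the genes furthest below normal control in the cancer control library, so the 250 bases before their start are shown, 5′ to 3′ on the strand of the gene. They come from RefSeq on GRCm38.p6, where 7 of the 10 genes had an entry. The Casq1 window is chr1:172219896-172220145 on the minus strand, and the Pvalb window, at the start that matches the annotated gene end, is chr15:78206401-78206650 on the minus strand. Capitals mark an E-box (CANNTG, the letters read by the MyoD family), a MEF2-like element (CTANNNNTA) or a TATA box (TATAAA), searched on both strands.
Casq1: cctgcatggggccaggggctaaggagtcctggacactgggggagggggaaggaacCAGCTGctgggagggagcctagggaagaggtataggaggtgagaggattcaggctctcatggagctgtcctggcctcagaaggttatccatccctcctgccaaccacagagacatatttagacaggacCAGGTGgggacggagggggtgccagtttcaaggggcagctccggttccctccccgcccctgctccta
Pvalb: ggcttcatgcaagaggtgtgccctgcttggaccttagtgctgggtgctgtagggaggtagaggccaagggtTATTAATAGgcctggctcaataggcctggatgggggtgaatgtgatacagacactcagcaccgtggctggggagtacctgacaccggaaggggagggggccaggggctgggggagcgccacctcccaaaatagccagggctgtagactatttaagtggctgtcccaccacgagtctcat

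The Casq1 window held 2 E-boxes, which began 195 and 67 bases before the start, and neither of the other motifs. The Pvalb window held 1 MEF2-like element, 179 bases before the start, with no E-box. Another RefSeq start of Pvalb had 1 E-box in its window. Of 32851 promoter windows of the same length, 66.2% held an E-box, 19.0% a MEF2-like element and 12.4% a TATA box, so these matches are a description of the letters and not of binding.

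In normal muscle the calcium genes were led by the cytosolic buffer and the fast pump. In normal control Pvalb took 66.4% of the reads of the 10 genes and Atp2a1 25.3%, and in normal exercise the shares were 55.6% and 34.5%. With tumor their order was the reverse. Atp2a1 took 83.2% in cancer control and 75.7% in cancer exercise, and Pvalb 8.57% and 15.4%. Together the 10 genes made up 3.09% of the normal control library and 2.56% of normal exercise, against 1.39% in cancer control and 1.33% in cancer exercise. Casq1 stood at place 3 and Ryr1 at place 4 in both libraries without tumor. With tumor Ryr1 stood at place 3, while Casq1 stood at place 7 in cancer control and at place 4 in cancer exercise. Neighbors in the order had counting intervals that overlapped in 2 cases. Sln and Pln could not be ranked in normal control, with 43 and 40 reads, nor Atp2a2 and Jph1 in cancer exercise, with 1731 and 1710.

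**Figure D1:**
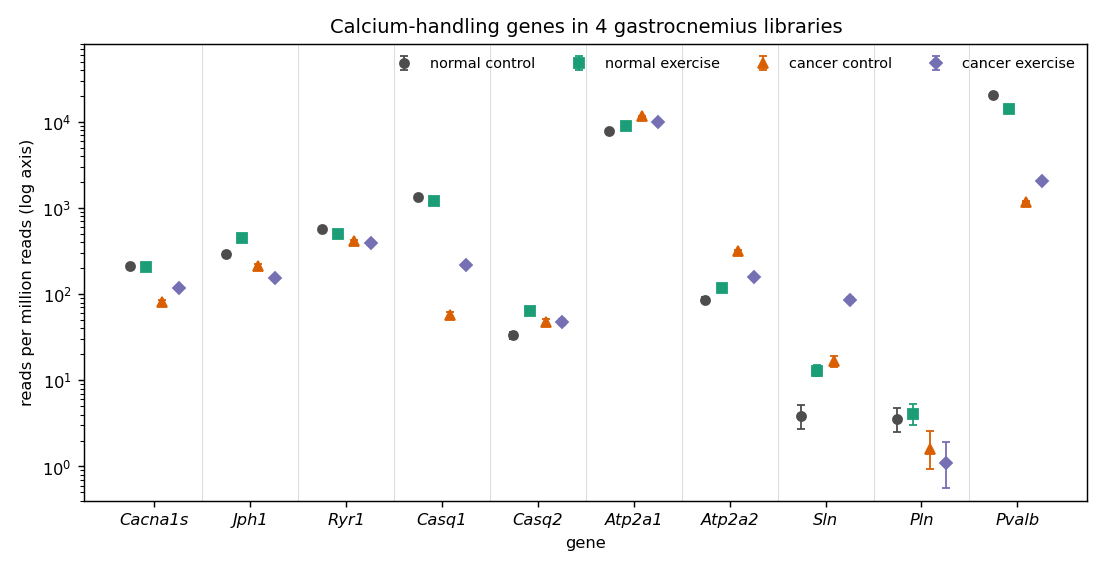
Level of each calcium gene in the 4 libraries, in RPM (log axis), with 1 point per library and bars for the 95% counting interval. Pvalb and Casq1 are highest in normal control and lowest in cancer control, Sln is highest in cancer exercise, and Ryr1 (396 to 571 RPM) and Atp2a1 (7819 to 11527 RPM) stay in a narrow band.

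The parts of the triad that sense voltage and release calcium differed in how far they moved. Cacna1s (chr1:136052750-136119822, plus strand), the voltage sensor subunit, had a count of 2554 in normal control and 2214 in normal exercise, against 919 in cancer control and 1420 with exercise. It was lowest in cancer control, 2.78-fold below normal control (log2 difference -1.47, interval -1.59 to -1.36). In the exercised pair the difference with tumor was -0.64, within 2-fold. Ryr1 (chr7:29003344-29125179, minus strand), the release channel, had counts of 6850, 5315, 4665 and 4724 in the same order of libraries. Its whole range was 0.55 on the log2 scale, one of the narrowest of the 10 genes. Jph1 (chr1:16964560-17097889, minus strand), the membrane tether, had 3533, 4750, 2450 and 1852. It was 2.56-fold lower in cancer exercise than in normal exercise (-1.36, interval -1.44 to -1.28), and its difference between cancer control and normal control was -0.53. Both libraries with tumor were below both without tumor for Cacna1s, Ryr1 and Jph1.

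Within a library, ratios of reads do not depend on the scaling between libraries. Cacna1s had 0.373 reads per Ryr1 read in normal control (interval 0.356 to 0.391) and 0.417 in normal exercise, against 0.197 in cancer control (0.183 to 0.212) and 0.301 in cancer exercise. Jph1 had 0.516 reads per Ryr1 read in normal control and 0.894 in normal exercise, against 0.525 in cancer control and 0.392 with exercise and tumor. The voltage sensor was lowest relative to the release channel in cancer control, and the tether highest in normal exercise.

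The luminal calcium store showed the largest difference of all 10 genes. Casq1 (chr1:172209894-172219868, minus strand), the main calcium-binding protein of the skeletal muscle store, had normalized counts of 16247 in normal control and 12783 in normal exercise, against 659 in cancer control and 2626 after exercise with tumor. Its level in cancer control was 24.6-fold lower than in normal control (-4.62, interval -4.74 to -4.51), and 2.27% of the genes tested in that comparison had a larger absolute difference. With exercise in both libraries the tumor difference was 4.87-fold lower (-2.28, interval -2.35 to -2.22). Cancer exercise was 3.98-fold above cancer control (1.99, interval 1.87 to 2.12), whereas normal exercise was 0.35 below normal control on the log2 scale. Casq1 ranked 67 among all genes in normal control and 2687 in cancer control. Casq2 (chr3:102086415-102146514, plus strand), the slow fiber and heart form, had 398, 687, 542 and 569 in the same order. It was lowest in normal control and stayed within 2-fold in all 4 comparisons, its largest difference being 0.79 for normal exercise against normal control (interval 0.61 to 0.97). Casq1 reads outnumbered Casq2 reads 40.8 to 1 in normal control (interval 36.9 to 45.4) and 18.6 to 1 in normal exercise, against 1.22 to 1 in cancer control (1.08 to 1.37) and 4.62 to 1 in cancer exercise. The coding sequences of the pair share 69.8% of their aligned bases, and how the authors treated reads matching several genes is not given.

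The pumps moved the other way or hardly at all. Atp2a1 (chr7:126445858-126463108, minus strand), the fast fiber pump SERCA1, had 93714, 94957, 131435 and 120276. Both libraries with tumor were above both without, by 0.49 on the log2 scale without exercise and 0.34 with exercise, all within 2-fold. Atp2a2 (chr5:122453513-122502225, minus strand), which encodes SERCA2, had 1035 in normal control and 1261 in normal exercise, against 3630 in cancer control and 1874 in cancer exercise. It was 3.5-fold higher in cancer control than in normal control (1.81, interval 1.71 to 1.92). Cancer exercise was 0.95 below cancer control on the log2 scale (interval -1.04 to -0.87), just inside 2-fold, and 0.57 above normal exercise. Counts do not separate the muscle and the general splice form of Atp2a2. The fast pump had 90.6 reads per Atp2a2 read in normal control (interval 85.0 to 96.6) and 75.3 in normal exercise, against 36.2 in cancer control (35.0 to 37.5) and 64.2 in cancer exercise. The ratio was lowest in cancer control, and the coding sequences of the pair share 75.7% of their aligned bases.

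Atp2a2 is set beside the slow fiber markers, a list of 8 genes such as Myh7, the slow myosin heavy chain. Both Atp2a2 and the sum of the markers were lowest in normal control and highest in cancer control. The summed level of the markers was 749 RPM in normal control and 1467 in normal exercise, against 2416 in cancer control and 1133 in cancer exercise. Atp2a2 had 118 RPM in normal exercise and 157 in cancer exercise. Marker by marker the exercised libraries were close, with a median log2 difference of -0.003 for cancer exercise against normal exercise, so the order there holds for the sum only. In cancer control 7 of the 8 were at least 2-fold higher than in normal control, with a median log2 difference of 1.87, and Myh7 had 379, 867, 1641 and 851 normalized counts over the 4 libraries. In the same comparison 1 of 10 fast fiber markers was higher and 5 lower, the median being -0.67. Within the fast list the differences were unequal. Myl1, a fast myosin light chain, differed by -3.22, and Tnnc2, the calcium-binding troponin subunit of fast fibers, by -1.85, while Myh4, the most abundant myosin heavy chain, differed by -0.23 and Tnni2 by -0.03. The summed level of the fast list was 119018, 106360, 70724 and 74780 RPM. The part of fiber type in the values of the calcium genes was not tested.

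Reads of the fast pump may hold those of another gene, or be counted under that gene. Rabep2, on the opposite strand, shares 763 exon bases with Atp2a1, and it had 0.326 reads per Atp2a1 read in normal control and 0.327 in normal exercise, against 0.353 in cancer control and 0.305 in cancer exercise. Cep85l shares 141 exon bases with Pln on the opposite strand, and over the libraries in that order it had 159, 228, 417 and 559 reads where Pln had 40, 54, 17 and 12. The handling of strand is not given in the sources used here, so reads of such partners cannot be told apart from the deposited values. Sln and Pvalb overlap no annotated gene.

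The regulators of the pumps went in opposite directions in both tumor comparisons. Sln had normalized counts of 45.8 in normal control and 138 in normal exercise, against 190 in cancer control and 1029 in cancer exercise, from 43, 171, 177 and 951 reads. It was the only one of the 10 genes past 2-fold in all 4 comparisons, and higher each time. Normal exercise was 2.98-fold above normal control (1.58, interval 1.11 to 2.12), and cancer control was 4.07-fold above it (2.03, interval 1.56 to 2.57). Cancer exercise was 5.41-fold above cancer control (interval 2.21 to 2.68 on the log2 scale) and 7.39-fold above normal exercise (interval 2.66 to 3.14). The separate intervals of normal exercise (11.1 to 15.0 RPM) and cancer control (14.3 to 19.3) overlapped. Such an overlap does not decide their order, and no interval of that difference was computed.

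Pln was a low gene throughout, with normalized counts of 42.5 in normal control and 43.9 in normal exercise, against 18.2 in cancer control and 13.1 in cancer exercise. It was 2.26-fold lower in cancer control than in normal control, with an interval from -2.14 to -0.37 on the log2 scale, and 3.19-fold lower in cancer exercise than in normal exercise, with an interval from -2.79 to -0.83. Both intervals reach inside 2-fold, so these calls are weaker than those of the abundant genes. A difference of Pln between the exercised and the sedentary library was not detectable at this depth, either without tumor (interval -0.58 to 0.67) or with it (-1.69 to 0.67). There was 1.07 Sln read per Pln read in normal control (interval 0.682 to 1.7) and 3.17 in normal exercise, against 10.4 in cancer control and 79.2 in cancer exercise (45.2 to 154). For each Sln read there were 2049 reads of Atp2a1 in normal control and 117 in cancer exercise, so that pump reads outnumbered those of the regulator also where Sln was highest.

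Parvalbumin stood with Casq1 among the genes with the widest range. Pvalb (chr15:78191114-78206400, minus strand) had normalized counts of 246119 in normal control and 152769 in normal exercise, against 13540 in cancer control and 24440 in cancer exercise. It ranked 5 among all genes in normal control and 106 in cancer control. Cancer control was 18.2-fold below normal control (-4.18, interval -4.21 to -4.16), and cancer exercise was 6.25-fold below normal exercise (-2.64, interval -2.66 to -2.62). Exercise went with a lower level without tumor (-0.69) and a higher level with tumor (0.85), both within 2-fold. Against the fast pump of the same fibers, Pvalb had 2.63 reads per Atp2a1 read in normal control and 1.61 in normal exercise, against 0.103 in cancer control and 0.203 in cancer exercise. Casq1 had 0.173, 0.135, 0.00501 and 0.0218 reads per Atp2a1 read in the same order. Store protein and cytosolic buffer were both far lower against the fast pump in the libraries with tumor.

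**Figure D2:**
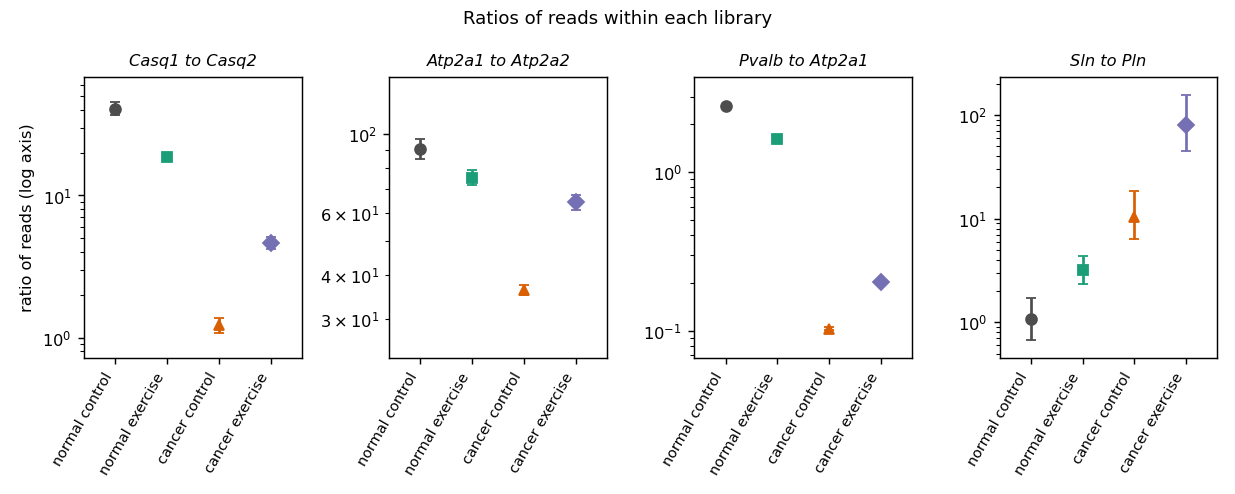
Ratios of reads within each library for 4 gene pairs, on log axes that differ between panels, with bars for the 95% counting interval. Casq1 to Casq2, Atp2a1 to Atp2a2 and Pvalb to Atp2a1 are lowest in cancer control, and Sln to Pln is highest in cancer exercise, at 79.2.

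Exercise without tumor, the comparison of normal exercise with normal control, asked what training alone changes in healthy muscle. Sln was the 1 gene of the 10 that passed 2-fold, and it was higher. The background was 21.5% of 14518 genes called in either direction, 9.44% higher and 12.1% lower, so 1 of 10 is not more than the background. Next in size were Casq2 (0.79) and Pvalb (-0.69), and the median over the 10 genes was 0.03. The median absolute difference was 0.36, against 0.42 over all genes tested. Among slow fiber markers 4 of 8 were higher in the same comparison, and 0 of 10 fast fiber markers were called. Of the fibroblast and tendon markers 6 of 9 were lower (median -1.52, summed level 7916 in normal control, 4165 in normal exercise). So were 5 of 5 red cell markers that passed (20775 against 4804 RPM). Their part in the values of the calcium genes was not tested. With a minimum of 256 in place of 4, which leaves out Sln and Pln, 0 of these genes were called against 4.76% of all genes.

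Tumor without exercise, the comparison of cancer control with normal control, asked what the tumor changes in sedentary muscle. It held the most calls among the 10 genes, 6, of which Atp2a2 and Sln were higher and Casq1, Pvalb, Cacna1s and Pln lower. Over all genes 45.1% of 14818 were called, 20.9% higher and 24.2% lower, so that 6 of 10 is little above the background. The median over the 10 genes was -0.54 against -0.04 over all genes, and the median absolute difference 1.33 against 0.87. With the minimum of 256, which again leaves out Sln and Pln, 4 genes (Casq1, Pvalb, Cacna1s and Atp2a2) were called, against 34.8% of all genes. Other cell types also differed between these libraries. All 6 neutrophil markers with a row were higher, their sum being 5.77 RPM in normal control and 233 in cancer control. Of the fibroblast and tendon markers 7 of 9 were lower (7916 against 3233), with a median log2 difference of -4.52. Dcn, which differed by -0.71, held most of the reads in that sum. All 6 fat cell markers were lower as well (3154 against 1097). The 8 skeletal muscle markers together stood at 53279 and 29599 with 2 called lower. The part of these differences in the values of the calcium genes was not tested.

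Exercise with tumor, the comparison of cancer exercise with cancer control, asked what training changes in tumor-bearing mice. Casq1 and Sln were higher, 0 of the 10 genes were called lower, and Atp2a2 (-0.95) and Pvalb (0.85) lay just inside 2-fold. The background was 30.6% of 14491 genes, 15.6% higher and 15.1% lower, so 2 of 10 is below it. The median over the 10 genes was 0.04. With the minimum of 256, which leaves out Pln, both calls stood, against 11.6% of all genes. At that minimum the calls are no longer below the background, so this reading depends on the minimum. In the same comparison 3 of 8 slow fiber markers were lower and 1 of 10 fast fiber markers was higher. All 6 red cell markers were higher, from a summed 20630 RPM in cancer control to 42252 in cancer exercise, while 4 of the 5 fat cell markers that passed (median 1.12), 4 of 9 fibroblast and tendon markers and 2 of 4 smooth muscle markers were higher. Of the nerve and Schwann cell markers 3 of 6 were lower (median -1.04). The part of these differences in the calcium genes was not tested.

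Tumor with exercise, the comparison of cancer exercise with normal exercise, asked what the tumor changes in trained muscle. Of the 10 genes 5 were called, Sln higher and Casq1, Pvalb, Pln and Jph1 lower. The background was 30.3% of 14470 genes, 13.9% higher and 16.3% lower, so 5 of 10 is above it. The median over the 10 genes was -0.46. With the minimum of 256, which leaves out Pln, 4 genes were called against 16% of all genes. Slow fiber markers were close between these libraries, with 1 of 8 higher and a median of 0.00, and Atp2a2 differed by 0.57. Fast fiber markers split, with 2 higher and 2 lower of 10. All 6 red cell markers and the 5 neutrophil markers that passed were higher in cancer exercise, and 6 of 9 fibroblast and tendon markers were lower, which was not tested for its part in the calcium genes.

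**Figure D3:**
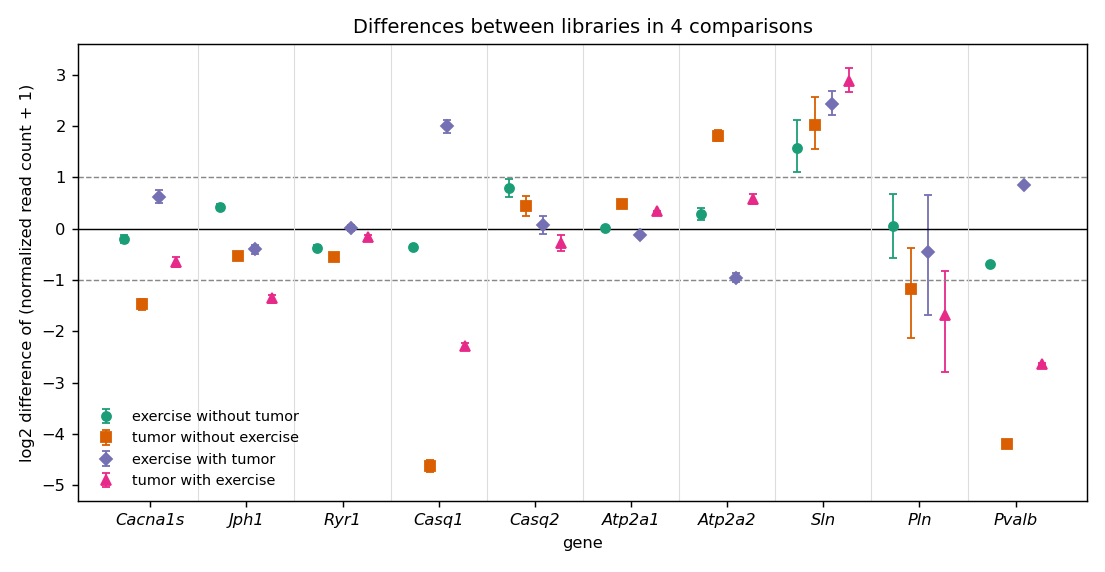
Log2 differences of normalized read counts plus 1 for the 10 genes in the 4 comparisons, each the first-named condition minus its control, with bars for the 95% counting interval and dashed lines at 2-fold. Sln lies above the upper line in all 4 comparisons, Casq1 and Pvalb are far below the lower line in both tumor comparisons, and Pln has the widest intervals.

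Comparisons that share a library are not independent of each other, since an unusual level in cancer control enters tumor without exercise and exercise with tumor with opposite signs. The pair of exercise comparisons shares none. The exercise difference had opposite signs without and with tumor in 8 of the 10 genes, all but Casq2 and Sln. Over the 13524 genes that passed the minimum in both comparisons, 51.6% had opposite signs. In 3 of the 8 the gap was 2-fold or more. The background was 35.3% of genes with a gap of that size, and 26.3% with such a gap and opposite signs, so 3 of 10 is near it. For Casq1 the exercise difference was 2.34 higher with tumor than without it, for Pvalb it was 1.54 higher, and for Atp2a2 it was 1.24 lower (-1.24). The gaps of the others lay between -0.83 for Jph1 and 0.86 for Sln. No test of these gaps was possible with 1 library per group. A sign carries little weight where a difference is small, and for Ryr1, Atp2a1 and Pln 1 of the exercise differences was at most 0.05 in size. Under scaling to total reads Ryr1 had a difference of -0.05 with tumor in place of 0.02. That scaling moved the median of all genes by 0.16 in exercise without tumor and by -0.15 in tumor with exercise, and the differences above are relative to the authors' scaling.

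The wider calcium pathway was described through 6 lists, of which 74 genes had a row and 68 passed the minimum in each comparison. In tumor without exercise 4 of the 68 were higher and 22 lower, with a median of -0.49. In tumor with exercise 1 was higher and 16 lower (median -0.28). In exercise with tumor the balance was the other way, 11 higher and 3 lower (median 0.35), and in exercise without tumor it was 4 and 3 (median 0.04). Over all genes 20.9% were higher and 24.2% lower in tumor without exercise, and 13.9% and 16.3% in tumor with exercise. The shares were 15.6% and 15.1% in exercise with tumor, and 9.44% and 12.1% in exercise without tumor. The same shares stand beside the counts of each list below, and the lists were not tested for enrichment. Genes with 0 reads in a library give only bounds. When counts up to 3 reads were set to 3, the medians were 0.32 in exercise with tumor and the same as before in the other comparisons. The counts became 3 higher and 2 lower in exercise without tumor, 10 and 3 in exercise with tumor, 1 and 15 in tumor with exercise, and stayed in tumor without exercise.

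The list of triad and release channel partners held 21 genes, of which 2 were higher and 10 lower in tumor without exercise (median -0.64). Ank1, whose small muscle form links the sarcoplasmic reticulum to the contractile apparatus, had normalized counts of 1489 in normal control and 1429 in normal exercise, against 38.6 in cancer control and 178 in cancer exercise. Jph2, the second junctophilin of muscle, had 2084, 1835, 268 and 496 in the same order. Stac3, an adaptor that the voltage sensor needs for coupling, had 368, 341, 83.6 and 67.2. These 3, named for the size of their differences, were lower in both libraries with tumor, as was Cacna1s, their partner in the junction. Not all partners were. Cacng1, the gamma subunit of the voltage sensor, named here after its values were seen, had 3953, 6054, 14552 and 17150 and was called higher in both tumor comparisons, by 1.88 on the log2 scale without exercise. Cacng6, a gamma subunit of calcium channels, had 9, 36, 0 and 2 reads and rests on few counts.

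Among pump regulators and luminal proteins 7 of 10 listed genes had a row and 6 passed the minimum. Mrln, which encodes the pump inhibitor myoregulin, was lower at least 2-fold in 3 comparisons and had counts of 5021, 2119, 530 and 1020. It was highest in normal control and lowest in cancer control, as Casq1 and Pvalb were. Hrc, a histidine-rich calcium binder of the store, had 4234, 4210, 2262 and 3136, and Srl, which encodes sarcalumenin, had 7013, 4607, 3696 and 6025. Both differed less than Casq1 in the tumor comparisons and in exercise with tumor, while without tumor Srl differed by -0.61 with exercise and Casq1 by -0.35. Atp2a3, the third SERCA pump gene, had 80.9, 126, 68.6 and 70.4.

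Store-operated entry, by which an emptied store draws calcium from outside, showed few calls. In tumor with exercise 2 of 9 genes that passed were lower, 1 of them on 0 against 6 reads, so that 1 was left when counts up to 3 reads were set to 3. Stim1, the store sensor, had 165, 199, 90.0 and 157, and Stim2 had 815, 1011, 430 and 381. The stromal interaction regulator Tmem110 had 168, 142, 140 and 277. Mitochondrial uptake, with 8 genes, had medians between 0.11 and 0.19 in the 4 comparisons, with 1 call in tumor without exercise and 2 in tumor with exercise, all lower. Mcu, the pore of the uniporter, had 898, 1204, 1052 and 1154, and its regulator Mcur1 had 868, 907, 1373 and 1380. Micu3, a gatekeeper of the same channel, had 375, 490, 179 and 234 and was past 2-fold in both tumor comparisons (-1.06 with exercise). Slc8b1, the mitochondrial sodium-calcium exchanger, had 31.9, 44.7, 16.1 and 16.3 and was past 2-fold in tumor with exercise (-1.40).

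Extrusion through the surface membrane had 7 genes with a row, of which 1 was higher and 3 lower in tumor without exercise and 3 higher and 1 lower in exercise with tumor. Some of these calls rest on few reads. Atp2b2, named after its values were seen, had 0, 1, 8 and 0 reads and made up the 1 higher and the 1 lower call, and Slc8a2, named likewise, had 3, 3, 0 and 4, so that 2 genes were higher in exercise with tumor when counts up to 3 were set to 3. Atp2b3, a plasma membrane calcium pump, had 124, 143, 1 and 46 reads, and Slc8a3, a sodium-calcium exchanger of skeletal muscle, had 220, 172, 17 and 74. Both were lowest in cancer control, as Casq1 was, and the value of Atp2b3 there rests on 1 read. Atp2b4 had normalized counts of 523, 273, 125 and 193, and Slc8a1, the exchanger best known from heart, had 39.4, 99.8, 57.9 and 102.

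Cytosolic sensors and calcineurin signaling were covered by 22 genes, of which 19 passed. In tumor without exercise 1 was higher and 6 lower (median -0.56). Camk2a, a calmodulin-dependent kinase subunit, had 2720, 3582, 367 and 972, and Calm3, one of the calmodulin genes, had 6105, 4840, 941 and 1793. Calm2, which encodes the same protein, had 5094, 5598, 1547 and 1541. Capn3, a muscle calpain, had 1145, 1158, 276 and 738. The sensors named here were lower in both libraries with tumor.

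**Figure D4:**
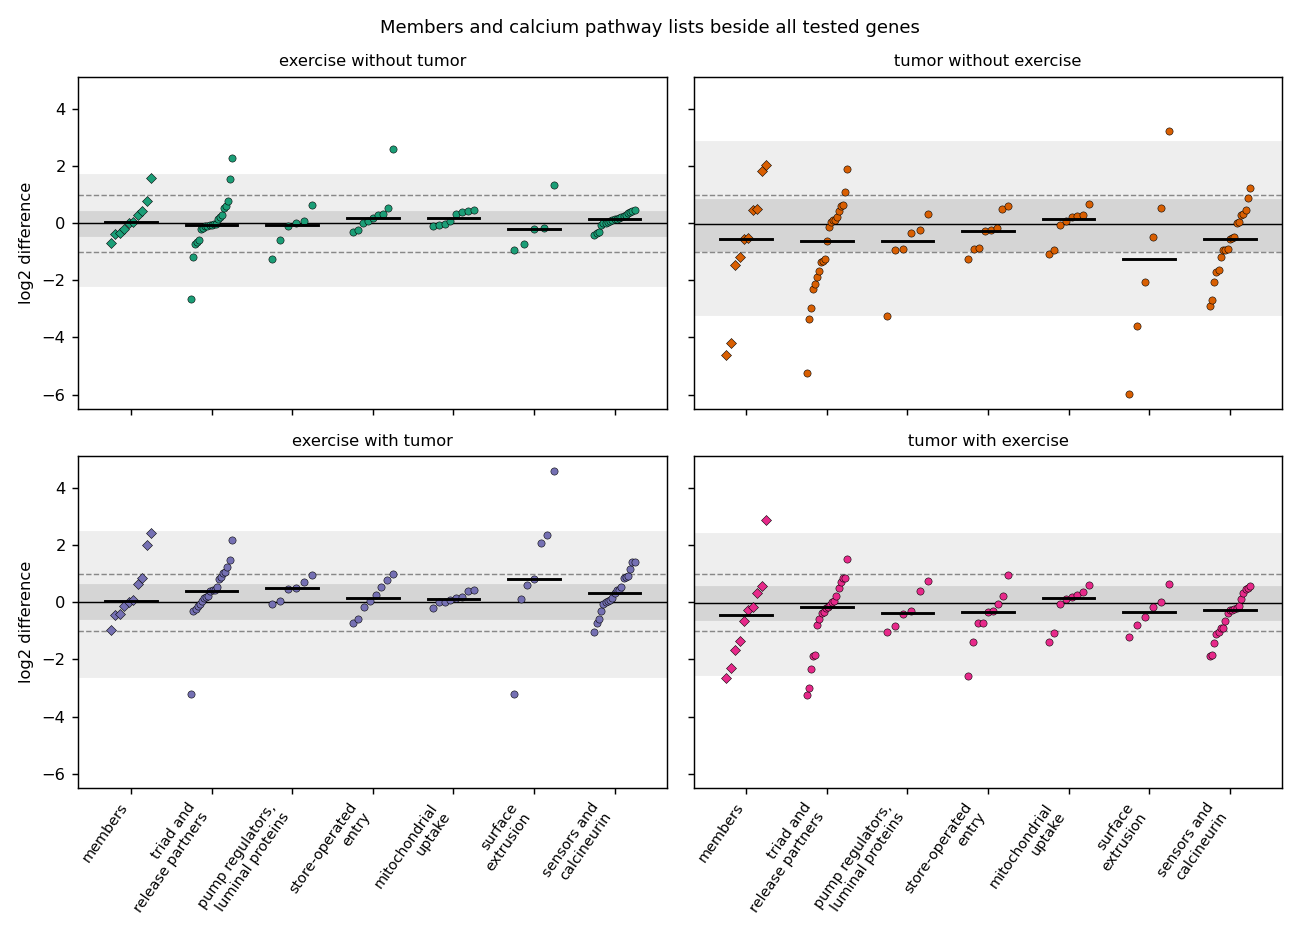
Log2 differences of the 10 genes (diamonds) and of 6 calcium pathway lists (circles, 1 per gene that passed the minimum) in the 4 comparisons, with a bar at each median. The dark band holds the middle 50% and the pale band the middle 90% of all tested genes, and the dashed lines mark 2-fold. In tumor without exercise 4 of the 68 pathway genes were higher and 22 lower, while of all tested genes 20.9% were higher and 24.2% lower. The medians of 4 of the 6 lists were at their lowest in that comparison, all but store-operated entry and mitochondrial uptake.

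Of the genes that were lowest in a library with tumor Casq1 had the widest range, 4.62 on the log2 scale, and of those that were highest in one Sln, with 4.46. The genes most like them over the 4 libraries were sought among 9323 genes with a mean normalized count of at least 64, by the Euclidean distance between log2 levels centered on their mean. Nearest to Casq1 was Sypl2, which encodes mitsugumin 29, a protein of the triad membranes, at a distance of 0.127. Sypl2 had 3612 in normal control and 2522 in normal exercise, against 140 in cancer control and 543 in cancer exercise. Gpd1 (0.433), Cd209g (0.504), Clec3b (0.535) and Ddit4l (0.536) came next. No gene was as near to Sln. Among the closest were Acer2 (1.20), Srm (1.30), Lin37 (1.37) and AI317395 (1.40), which shared its highest library. With 4 points per gene and 1 library per group, such distances describe these libraries alone.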

How the data were processed

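The libraries were QuantSeq 3′ mRNA libraries from gastrocnemius, sequenced as single ends. Per the methods, the authors used Bowtie2 for alignment, the coverage function of Bedtools for counts per gene, and edgeR for a quantile normalization. The labels name mm10. Versions, annotation and strand handling are not given in the sources used here. The authors deposited each normalized count, plus 1, as a log2 value. Whole reads were recovered from them by fitting the authors' adjustment, a negative binomial map to a common library size with a dispersion of 0.339, and 100% of the values matched a whole number of reads within 0.0006. Reads of the most abundant genes are approximate, within 80.2 reads for Pvalb.

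Groups came from the sample titles, 1 library each. Differences are those of the deposited log2 values, that is with a pseudocount of 1, so that changes of low genes are understated. The rule for calls, the named genes (all 10 genes, and up to 4 per pathway list with the largest absolute difference among those with a count of at least 16), the pathway lists and 11 marker lists were chosen with earlier results of these data known. Intervals of differences and ratios are 95% Clopper-Pearson intervals, and those of levels are exact Poisson intervals. For list medians, genes with up to 3 reads in a library were also set to 3. The steps were tested on data simulated with the same adjustment and with counting error only. That test does not cover another adjustment or the spread between animals. Alternatives were other scalings, pseudocounts, minimums and folds. Coordinates and coding sequences are from GENCODE M21 and promoters from RefSeq, both on GRCm38. Some genes that the naming rule picked are not reported here. Strit1, Mcub and Ly6g, among other listed symbols, had no row under that symbol. Python 3.11.15, numpy 2.4.6, scipy 1.17.1, pandas 2.3.3, Biopython 1.88 and matplotlib 3.10.9 were used.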

Additional observations from a re-analysis of the deposited data

Results flagged for a closer look

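The exercise difference moved in opposite directions without and with tumor in 3 of the 10 genes with a gap of at least 2-fold between the pair of differences. Over all genes, 26.3% of 13524 had such a gap with opposite signs, so 3 of 10 is near the background. The gap, the log2 difference with tumor minus that without, was 2.34 in Casq1 (-0.35 without tumor and 1.99 with it), 1.54 in Pvalb (-0.69 and 0.85) and -1.24 in Atp2a2 (0.28 and -0.95). In all 3 genes cancer control held an extreme level, the lowest of the 4 libraries for Casq1 and Pvalb and the highest for Atp2a2. These gaps were not tested, because each group had 1 library.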

How the results depend on the processing

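No paired analysis was possible because each group had 1 library and no comparison came from a test. Leaving out a library was not possible for the same reason. The fold set the counts of changed genes most. At least 1.5-fold gave 3 in place of 1 in exercise without tumor (Sln, Casq2 and Pvalb) and 5 in place of 2 in exercise with tumor. Over all genes 37.9% and 49.5% were called at that fold. At least 4-fold gave 0 in exercise without tumor, 3 in place of 6 in tumor without exercise, 1 in exercise with tumor and 3 in place of 5 in tumor with exercise. The shares of all genes at 4-fold were 9.9%, 21.4%, 14.2% and 13.5% in that order. A minimum of 256, chosen after seeing the data, gave 0 in exercise without tumor, because Sln lies below it. Of 44 recomputed counts 37 stayed within 1.5 times the reported one and 7 did not. That tally includes settings that could not move a count. All of these genes passed with no minimum, a minimum of 16 in at least 1 library and a minimum of 4 in both. It also takes in a move from 2 to 3 under scaling to total reads and from 6 to 4 with the minimum of 256. Other scalings and pseudocounts changed the sign of 2 of 200 recomputed differences, both of Ryr1 in exercise with tumor (-0.05 and -0.01 in place of 0.02), and the call of 1, Atp2a2 in the same comparison (-1.02 under scaling to total reads). The largest move was 0.19. The number of genes whose exercise difference changed at least 2-fold with tumor was 3, and 4 under scaling to total reads, where Jph1 (-1.06) joined.

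Over all genes, calls in exercise without tumor went from 3121 to 5508 at 1.5-fold, 1437 at 4-fold, 1741 with a minimum of 16, 1600 with a minimum of 4 in both libraries and 262 with a minimum of 256. In tumor without exercise 6682 became 3178 at 4-fold and 2068 with a minimum of 256. In exercise with tumor 4437 became 7175 at 1.5-fold, 2058 at 4-fold, 2626 with a minimum of 4 in both libraries and 652 with a minimum of 256. In tumor with exercise 4378 became 7107, 1951, 2642 and 908 under the same settings. In both exercise comparisons the study counted fewer changed genes than the rule used here. With a minimum of 16 in place of 4, the share of all genes called was 14.0% in exercise without tumor and 23.8% in exercise with tumor. Depth limits Pln, with 12 to 54 reads, and Sln in normal control, with 43. For the abundant genes the number of libraries is the limit.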
